A study of Mus musculus with 2 samples.

Results

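The genes described here are the BCL2 family, the caspases and their regulators in the RNA of mouse embryonic heart. They were taken by symbol from the protein-coding genes of the deposited tables and number 49 of 22240 protein-coding symbols. The rule for the symbols does not use their values, but it was set with earlier results of these data known. Gene expression was measured by RNA sequencing of total RNA in 2 libraries, replicate 1 and replicate 2, of untreated heart at embryonic day 12.5, the mice being of mixed C57BL/6 x 129S6 strain. The libraries form 1 group, so the data hold no contrast between conditions, and no test was run. Whether they came from separate embryos or from pools is not given in the labels, so the spread between them may be technical.

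Apoptosis through the mitochondria is decided by the BCL2 family. Prosurvival members hold the pore-forming effectors BAX and BAK in check, and the BH3-only proteins, which sense damage or loss of growth signals, release that hold. An opened outer membrane lets out cytochrome c, which assembles with APAF1 to activate the initiator caspase-9, and this in turn cleaves the executioner caspases. Death receptors reach the same executioners through FADD and caspase-8, IAP proteins bind and restrain caspases, and p53 switches on several BH3-only genes under stress. In the embryonic heart, programmed cell death is known for its part in shaping the outflow tract and the cushions.

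Levels are FPKM, fragment counts divided by transcript length and by the size of the library, so genes can be compared per length. Detected means at least 1 FPKM in each library. Absolute depth is unknown. Among genes under 0.1 FPKM, the worth of a fragment was 1.33 times as high in replicate 2, that is, replicate 1 was the deeper. The markers of cardiac muscle were high in both libraries (5 of 5 detected, from Nkx2-5 at 54.1 ± 0.950 FPKM, SD, n = 2, to Actc1 at 4314 ± 98.4 FPKM). Endothelial (6 of 6), fibroblast (4 of 4), epicardial (4 of 4) and erythroid (7 of 7) markers were detected too, so the values are of a mixed tissue. The erythroid markers ranged from Gata1 at 1.36 ± 0.139 FPKM to Hbb-y at 15961.5 ± 813 FPKM, which is above Actc1. The part of red cells in the levels of the members was not tested. In such bulk RNA, fewer cells of a type and less RNA per cell cannot be told apart.

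Of the 49 members, 35 were detected, which is 71.4%, beside 52.4% of all protein-coding symbols. The median of the members was 8.50 FPKM in replicate 1 and 7.61 FPKM in replicate 2, and over all protein-coding symbols it was 1.66 FPKM in both. At 10 FPKM or more in both libraries stood 19 members, 38.8%, beside 27.1% of all protein-coding symbols. The members together held 0.153% of the summed protein-coding FPKM in replicate 1 and 0.152% in replicate 2. The detected members spanned a 20.6-fold range of mean level, from Birc3 at 2.29 ± 0.361 to Mcl1 at 47.1 ± 0.556 FPKM. Most roles of the pathway were present: the prosurvival, effector, BH3-only, apoptosome, initiator, executioner, IAP, death receptor and p53 groups each had detected members, and the group of inflammatory and other caspases had none of 4.

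**Figure D1:**
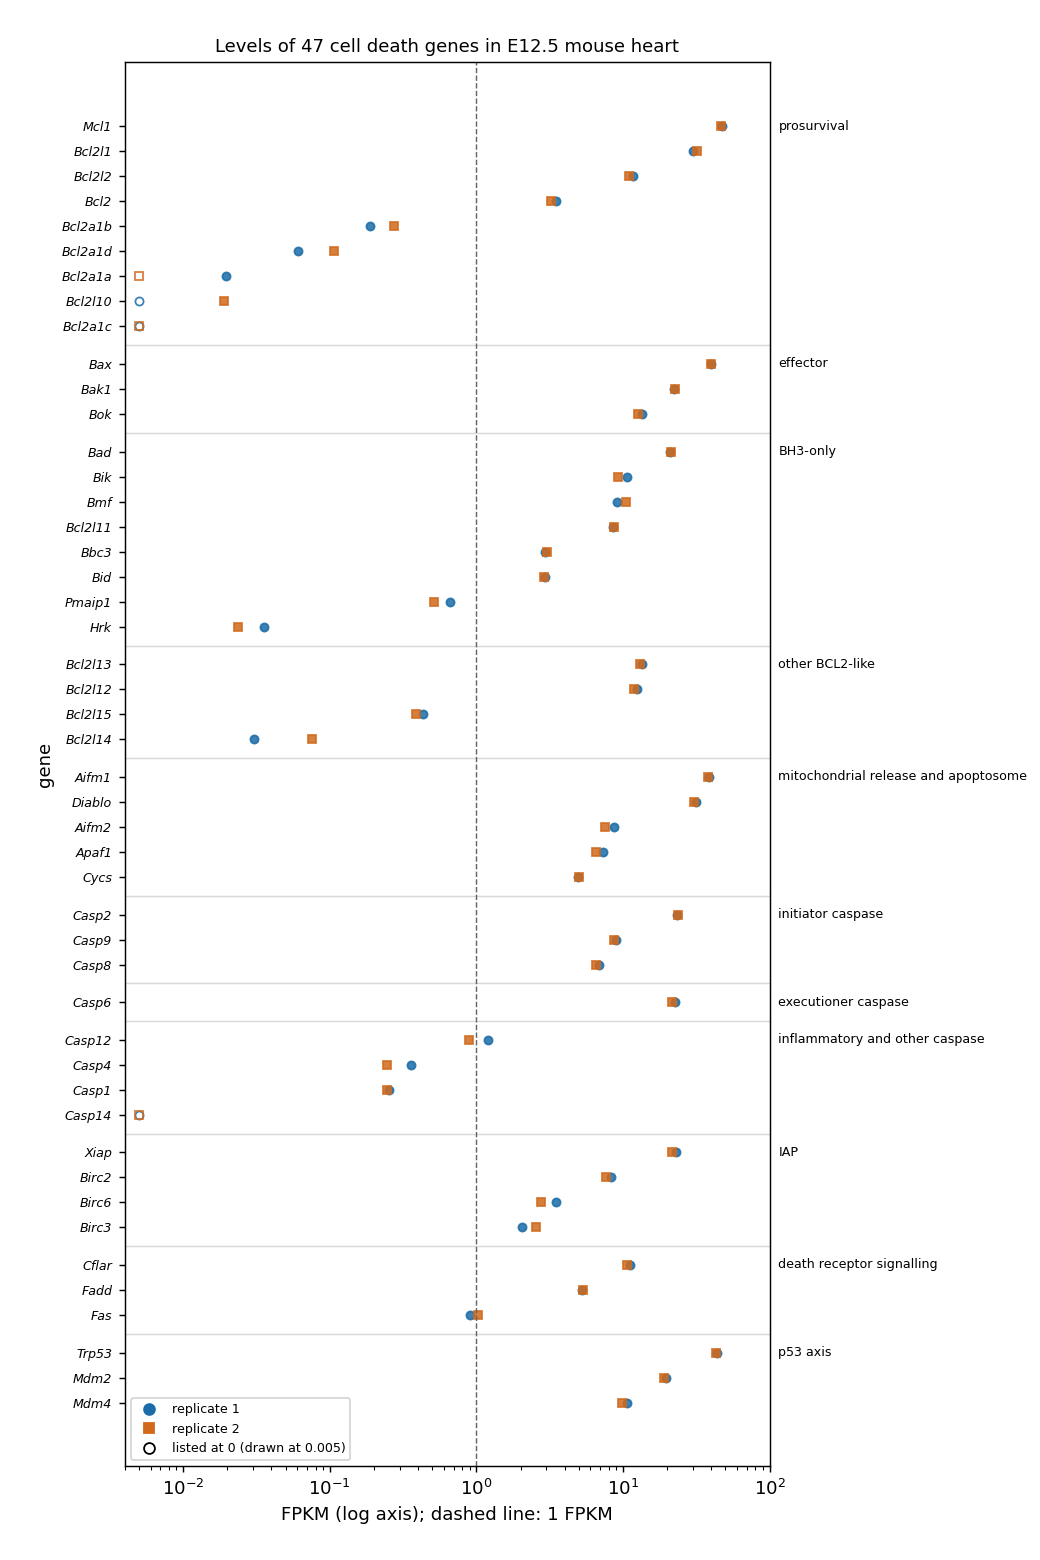
FPKM of 47 of the 49 members (rows, grouped by role) in replicate 1 (circles) and replicate 2 (squares) on a log axis, with the 1 FPKM limit dashed and values listed at 0 drawn open at 0.005. Detected members lie to the right of the line in both libraries, and the inflammatory caspases and the Bcl2a1 genes lie to the left or across it.

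Promoter windows of members at both ends of the level range are printed first, because the CG content of the windows is the sequence feature that was set beside the levels. They are the 250 bases before the start site, 5′ to 3′ on the gene's strand, from RefSeq on GRCm38.p6, with each CG pair in capitals. The genes are the 3 highest and the 3 lowest members with a single window, with no more than 1 Bcl2a1 gene. Mcl1 lies at chr3:95658471-95658720 on the plus strand, Trp53 at chr11:69580109-69580358 on the plus strand and Bax at chr7:45466899-45467148 on the minus strand. Of the low genes, Hrk lies at chr5:118169514-118169763 on the plus strand, Casp14 at chr10:78718294-78718543 on the minus strand and Bcl2a1c at chr9:114329885-114330134 on the plus strand.
Mcl1: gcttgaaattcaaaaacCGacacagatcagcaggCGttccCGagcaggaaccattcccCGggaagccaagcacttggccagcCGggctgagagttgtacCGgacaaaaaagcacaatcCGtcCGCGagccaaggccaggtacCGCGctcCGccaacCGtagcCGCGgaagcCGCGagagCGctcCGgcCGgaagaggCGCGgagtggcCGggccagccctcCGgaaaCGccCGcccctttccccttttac
Trp53: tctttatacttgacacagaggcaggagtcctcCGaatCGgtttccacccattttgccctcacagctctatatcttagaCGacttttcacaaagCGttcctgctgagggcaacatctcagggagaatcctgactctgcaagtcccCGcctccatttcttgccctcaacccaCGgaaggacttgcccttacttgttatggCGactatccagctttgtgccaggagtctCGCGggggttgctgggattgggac
Bax: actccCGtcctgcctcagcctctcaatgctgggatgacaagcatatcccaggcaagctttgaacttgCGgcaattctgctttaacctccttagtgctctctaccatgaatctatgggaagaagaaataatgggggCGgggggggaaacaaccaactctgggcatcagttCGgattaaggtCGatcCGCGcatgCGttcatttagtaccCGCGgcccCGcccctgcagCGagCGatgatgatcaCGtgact
Hrk: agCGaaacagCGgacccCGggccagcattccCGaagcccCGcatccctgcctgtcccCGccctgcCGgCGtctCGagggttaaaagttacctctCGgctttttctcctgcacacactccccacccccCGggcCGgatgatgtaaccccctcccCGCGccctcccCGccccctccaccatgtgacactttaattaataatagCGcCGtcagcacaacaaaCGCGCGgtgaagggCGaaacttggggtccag
Casp14: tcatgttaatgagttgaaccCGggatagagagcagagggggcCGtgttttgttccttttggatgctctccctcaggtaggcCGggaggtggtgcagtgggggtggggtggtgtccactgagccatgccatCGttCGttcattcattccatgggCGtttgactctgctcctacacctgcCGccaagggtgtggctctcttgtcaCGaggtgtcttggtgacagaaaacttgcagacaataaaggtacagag
Bcl2a1c: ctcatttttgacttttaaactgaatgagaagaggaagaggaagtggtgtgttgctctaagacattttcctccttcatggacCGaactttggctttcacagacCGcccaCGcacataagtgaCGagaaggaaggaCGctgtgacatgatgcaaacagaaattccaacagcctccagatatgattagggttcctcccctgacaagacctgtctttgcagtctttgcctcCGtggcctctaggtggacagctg

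The Mcl1 stretch holds 26 CG pairs, that of Trp53 9 and that of Bax 14. Among the low genes, Hrk has 21, Casp14 8 and Bcl2a1c 6. High and low genes therefore overlap in this feature: Hrk, at 0.0297 FPKM, has more CG pairs than Bax or Trp53, at 40.0 and 43.6 FPKM. RefSeq windows of 300 bases (250 before to 50 after a start) were found for 44 of the 49 members, 58 windows in all, and Bcl2l10, Bik and Pmaip1 are among those with no entry. Windows of detected members had a median of 21 CG pairs and those of the other members 4.5, beside 21 and 4 for detected and other protein-coding genes. The observed number of CG pairs was at least 0.6 of that expected from base composition in 29 of 44 windows of detected members, 65.9%, beside 71.1% of the windows of detected protein-coding genes. Among members that were not detected it was so in 1 of 14 windows, that of Hrk, 7.14%, beside 18.2% of the windows of such genes. These 14 windows belong to 12 genes. They include 2 overlapping windows of Casp4 and those of near-identical Bcl2a1 genes, so they are not independent. On both sides the members thus lay near the background or below it.

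**Figure D2:**
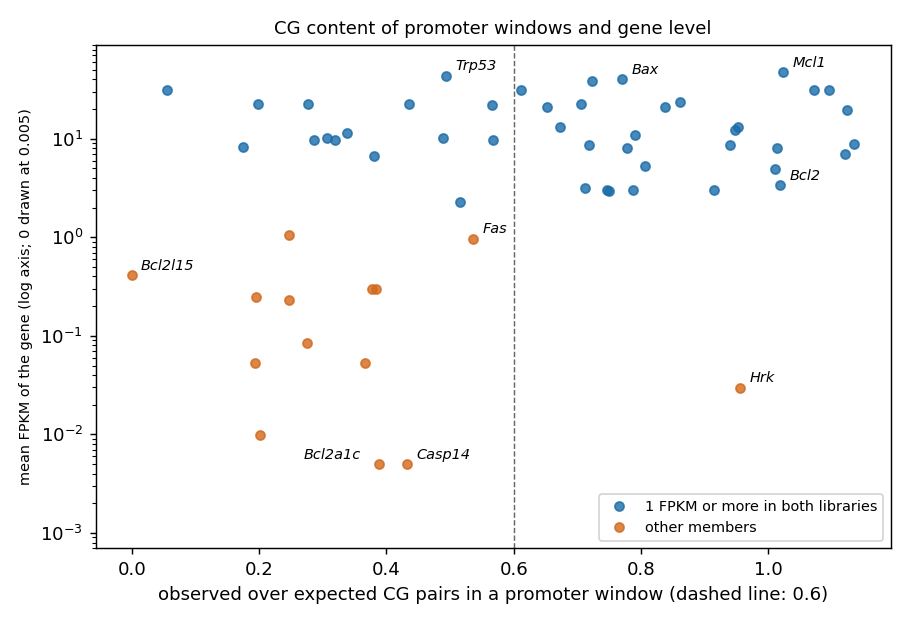
Mean FPKM of the gene (log axis, 0 drawn at 0.005) against the observed over expected number of CG pairs in each of 58 promoter windows of 44 members. Of the windows of members not detected (orange), that of Hrk lies to the right of 0.6, and detected members (blue) lie on both sides.

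Short motifs were searched on both strands of these windows. The GC box GGGCGG was in 33 of 58 member windows, 56.9%, beside 47.9% of 18257 windows of protein-coding genes. CCAAT was in 29.3%, beside 38.2%, and TATAAA in 4 windows, 6.90%, beside 12.1%. The windows with TATAAA belong to Trp53, Xiap, Bcl2l12 and Cflar, all detected. The ETS core CCGGAAG was in 8 windows, 13.8%, beside 11.5%, the E-box CACGTG in 5, 8.62%, beside 8.12%, and the cAMP response element TGACGTCA in 2, those of Birc2 and Cycs, 3.45%, beside 2.30%. A single p53 decamer was in the windows of Trp53, Bax, Mdm2, Bmf and Birc2, 8.62%, beside 7.29%. A full p53 site, a pair of such decamers 0 to 13 bases apart, was in none of the 58 windows and in 8 of the 18257. No match says only that these letters are not in these windows. A GC box can hold part of another motif, and no motif was read as a bound site.

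Among the prosurvival genes, Mcl1, a short-lived protein on which cardiac muscle is known to depend, was the highest of all 49 members. It stood at 47.5 FPKM in replicate 1 and 46.7 FPKM in replicate 2, rank 1271 of 22240 protein-coding symbols (mm9 chr3:95462643-95467099). Bcl2l1, which encodes BCL-XL, followed at 30.1 and 32.1 FPKM. Bcl2l2, which encodes BCL-W, was at 11.8 and 11.0 FPKM. Gm20521, at 0.0521 and 0.0658 FPKM, overlaps Bcl2l2 by 4794 bases on the same strand. Reads of these 2 genes may not have been told apart, so the Bcl2l2 level is uncertain. Bcl2 itself, the founding member of the family, was much lower at 3.49 and 3.25 FPKM, over a gene of 176 kb (mm9 chr1:108434755-108610851). The 4 genes kept this order in both libraries, with no overlap. On the scale of log2(FPKM + 1), Mcl1 exceeded Bcl2l1 by 0.58 ± 0.08, Bcl2l1 exceeded Bcl2 by 2.88 ± 0.12 and Bcl2l2 exceeded Bcl2 by 1.51 in replicate 1 and 1.49 in replicate 2. These ratios were larger than 0.22, the 95th percentile of the size of single-gene differences between the libraries, in each library. It does not cover errors that both libraries share.

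The other prosurvival genes were under the limit. Bcl2l10 was listed at 0 in replicate 1 and at 0.0190 FPKM in replicate 2. The Bcl2a1 genes, known from blood cells, gave 0.189 and 0.274 FPKM for Bcl2a1b, 0.0609 and 0.107 FPKM for Bcl2a1d, 0.0195 FPKM and 0 for Bcl2a1a, and 0 in both libraries for Bcl2a1c. All 817 bases of the longest Bcl2a1b transcript match Bcl2a1d at up to 99.1% identity and Bcl2a1a at up to 98.2%, so fragments may have been split among these 3 genes and their levels are uncertain. The Bcl2a1c transcript, of 444 bases, shared no such stretch with another gene. In addition, 8449 bases of Bcl2a1b lie within Mthfs on the same strand, which stood at 2.07 and 2.47 FPKM.

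All 3 effectors were detected. Bax was at 40.1 and 39.9 FPKM, the third of the 49 members (mm9 chr7:52717065-52722268). Of its longest transcript, 17.6% matches Gm45808, for which no level was given, so the Bax level and its ratios are uncertain. Bak1 was at 22.2 and 22.8 FPKM and Bok, a relative of both that is less bound by prosurvival proteins, at 13.5 and 12.7 FPKM. Bax exceeded Bak1 by 0.80 ± 0.03 and Bok by 1.54 ± 0.05 on the log2(FPKM + 1) scale, beyond 0.22 in both libraries. The whole of Bak1 is overlapped on the opposite strand by Ggnbp1, at 9.15 and 11.2 FPKM, and the strand setting of the counting is not given, so reads of the pair may not have been told apart. Bax was 11.9 ± 0.554 times as high as Bcl2 in FPKM. The prosurvival genes summed to 93.1 and 93.3 FPKM, and the effectors to 75.8 and 75.4 FPKM. The ratio of these sums was 1.23 in replicate 1 and 1.24 in replicate 2, and Mcl1 made up 50.5% of the former sum. These are transcript levels, and protein levels were not measured.

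Of the 8 BH3-only genes, 6 were detected, all below Bax and Bak1. Bad, whose product is held inactive by growth factor signalling, was highest at 21.1 and 21.2 FPKM. Bik was at 10.6 and 9.21 FPKM, and Bmf, linked to loss of cell anchorage, at 9.09 and 10.5 FPKM. The order of this pair changed between the libraries, so Bik and Bmf cannot be ranked. Bcl2l11, which encodes BIM and responds to loss of growth factors, was at 8.50 and 8.63 FPKM. The p53-responsive genes Bbc3 and Pmaip1 were low. Bbc3, which encodes PUMA, was at 2.96 and 3.04 FPKM, and Pmaip1, which encodes NOXA, was not detected at 0.662 and 0.514 FPKM. Bid, which links death receptors to the mitochondria when cleaved, was at 2.93 and 2.90 FPKM. Its 3′ end overlaps that of Bcl2l13 on the opposite strand by 913 bases, and 26.0% of its longest transcript is shared with that gene. Hrk, known from neurons, was at 0.0357 and 0.0237 FPKM. Of 5 neuronal markers 2 were detected, Tubb3 at 3.81 ± 0.645 and Stmn2 at 2.05 ± 0.290 FPKM.

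Bcl2l11 exceeded Bbc3 by 1.26 ± 0.01 and Bad exceeded Bid by 2.50 ± 0.01 (log2 of FPKM + 1). The sum of the BH3-only genes was 55.8 FPKM in replicate 1 and 56.0 in replicate 2, so that the prosurvival sum was 1.67 times as high in both. Of the other BCL2-like genes, Bcl2l13, a mitochondrial protein known as a mitophagy receptor, was at 13.5 and 13.1 FPKM. Bcl2l12 was at 12.5 and 11.9 FPKM, and shares 34.4% of its longest transcript with its neighbours on the opposite strand, among them Irf3. Neither Bcl2l14, at 0.0302 and 0.0756 FPKM, nor Bcl2l15, at 0.434 and 0.388 FPKM, was detected.

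**Figure D3:**
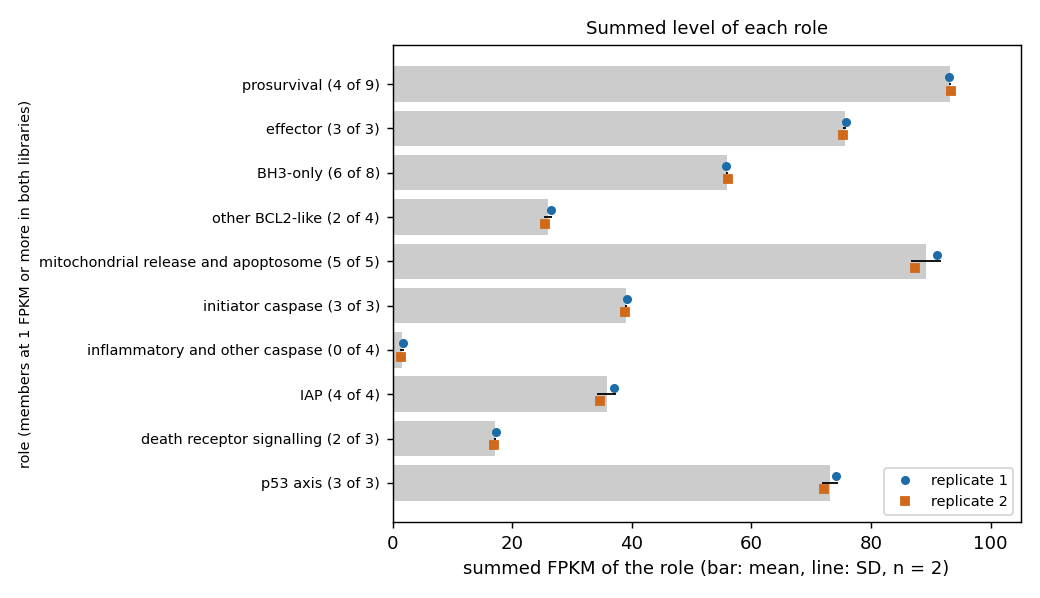
Summed FPKM of 10 roles, with the bar at the mean of both libraries, the line the SD (n = 2) and the points the libraries; the counts in brackets are detected members of all members. The prosurvival sum is highest at 93.2 FPKM and that of the inflammatory and other caspases lowest at 1.60 FPKM.

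The genes grouped here under mitochondrial release and the apoptosome were all detected (5 of 5). Aifm1, a mitochondrial flavoprotein needed for the respiratory chain that can also move to the nucleus in dying cells, was at 38.3 and 37.8 FPKM. Diablo, whose product SMAC displaces IAPs from caspases, was at 31.7 and 30.5 FPKM. Its longest transcript shares 73.6% of its bases with other genes, among them B3gnt4, which overlaps it on the opposite strand and stood at 0.0899 and 0.114 FPKM, so the Diablo level is uncertain. Aifm2, also known as FSP1 for its part against lipid peroxidation, was at 8.71 and 7.59 FPKM. H2afy2, at 23.7 and 23.4 FPKM, overlaps Aifm2 by 618 bases on the opposite strand, so reads of the pair may not have been told apart. Apaf1, the scaffold of the apoptosome, was at 7.36 and 6.55 FPKM, over a gene of 93.5 kb (mm9 chr10:90452056-90545515). Cycs, which encodes somatic cytochrome c, was the lowest of the 5 at 4.94 and 4.99 FPKM. Copies bear on this value: 33.7% of the longest Cycs transcript matches other genes at 98% identity or more, among them Gm10053 over 946 bases. In the files Gm10053 was at 0.403 and 0.493 FPKM and Gm10108 at 0.203 and 0.226 FPKM. How reads with several matches were counted is not given in the sources used here, so the Cycs level is uncertain. The part of the copies in it was not tested. Aifm1 exceeded Aifm2 by 2.10 ± 0.11 on the log2(FPKM + 1) scale.

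All 3 initiator caspases were detected. Casp2, an initiator known from stress of the genome and the centrosome, was the highest initiator at 23.4 and 23.6 FPKM. Casp9, the caspase of the apoptosome, was at 8.96 and 8.75 FPKM, and Casp8, that of death receptors, at 6.86 and 6.52 FPKM. Casp2 exceeded Casp9 by 1.31 ± 0.03, and Casp9 exceeded Casp8 by 0.36 ± 0.02. Apaf1 was below its partner Casp9 by 0.25 in replicate 1 and by 0.37 in replicate 2. Casp6, an executioner that cleaves lamins, was at 22.5 and 21.7 FPKM, below Casp2 in both libraries.

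None of the inflammatory and other caspases was detected in both libraries. Casp12, linked to the endoplasmic reticulum, came nearest at 1.20 FPKM in replicate 1 and 0.893 in replicate 2. Casp4, the sensor of bacterial lipopolysaccharide in the cytosol, was at 0.357 and 0.245 FPKM, and Casp1, which matures interleukin-1 beta, at 0.254 and 0.246 FPKM. The last pair could not be ranked: their log2 ratio was 0.11 in replicate 1 and -0.0014 in replicate 2. Casp14, known from the outer layers of the skin, was listed at 0 in both libraries, and of 4 keratinocyte markers none was detected, with Flg listed at 0. Macrophage markers were present at low level (7 of 9 detected, summed 19.3 FPKM in replicate 1 and 17.7 in replicate 2), with the defining receptor gene Csf1r at 3.32 ± 0.365 and Ptprc at 0.191 ± 0.0262 FPKM. None of 4 granulocyte and none of 5 lymphocyte markers was detected, with Elane, Cd3d and Ms4a1 listed at 0. The part of these cells in the values of Casp1, Casp4 and Bcl2a1 was not tested.

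Of 13 genes of the inflammasome and pyroptosis, 4 were detected: Pycard, the adaptor of inflammasomes, at 5.37 ± 0.0461 FPKM, the DNA sensor Aim2 at 3.71 ± 0.194, the pore-former Gsdmd at 3.02 ± 0.179 and the cytokine Il18 at 1.85 ± 0.215 FPKM. Naip1 was at 0 in replicate 1 and 0.00342 FPKM in replicate 2, and the median of the list was 0.0677 FPKM. Casp1, Casp4 and Casp12 lie side by side on chromosome 9 on the same strand, 1.56 kb and 8.65 kb apart with no protein-coding row between them. Chromosome 9 held 10 of the 49 members, 20.4%, beside 5.66% of all protein-coding rows. Of these 10, 2 were detected, Birc2 and Birc3, and 8 of the 14 members that were not detected lie there. Of all protein-coding rows of chromosome 9, 52.4% were detected. The count of 10 includes the 3 caspases, which lie in tandem, and Bcl2a1a, Bcl2a1b and Bcl2a1d, which are near-identical, so these members are not independent.

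All 4 IAP genes of the set were detected. Xiap, the IAP that inhibits caspases directly, was highest at 23.1 and 21.7 FPKM (mm9 chrX:39412856-39462833). Birc2, which encodes cIAP1, a ubiquitin ligase of TNF receptor complexes, was at 8.33 and 7.61 FPKM. Birc3, which encodes cIAP2, lies 13.4 kb away on the same strand with 1 protein-coding row between, and was at 2.03 and 2.54 FPKM. Birc2 exceeded Birc3 by 1.62 in replicate 1 and by 1.28 in replicate 2, the widest gap between the libraries among the 21 ratios. Birc6, a very large ubiquitin ligase, was at 3.50 and 2.78 FPKM. Xiap was below Diablo by 0.45 ± 0.02 (log2 of FPKM + 1), a ratio that carries the uncertainty of the Diablo level. Outside the set, Birc5, which encodes survivin and works mainly in cell division, was at 65.5 ± 1.44 FPKM and Birc7 at 0.267 ± 0.0292 FPKM.

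In the death receptor branch, Fas, the receptor, lay at the limit with 0.898 FPKM in replicate 1 and 1.03 in replicate 2, and so was not counted as detected. Fadd, its adaptor, was at 5.22 and 5.31 FPKM, 1.67 ± 0.05 above Fas on the log2(FPKM + 1) scale. Cflar, which encodes cFLIP, a relative of caspase-8 that blocks its activation, was at 11.2 and 10.6 FPKM. Of its longest transcript, 14.7% matches stretches of 24 other genes at 98% identity or more, so the Cflar level is uncertain. Cflar exceeded Casp8 by 0.63 ± 0.0016, a nearly equal ratio in both libraries. These genes are neighbours on chromosome 1, on the same strand and 36.5 kb apart with no protein-coding row between them. Of 14 genes of the TNF family and necroptosis, 8 were detected. The receptor gene Tnfrsf1a was highest at 16.9 ± 0.0353 FPKM, followed by Traf2, which recruits cIAPs, at 6.94 ± 0.146 and the deubiquitinase gene Cyld at 5.10 ± 0.183 FPKM. The ligands were near 0: Fasl was at 0.0171 ± 0.00920 and Tnfsf10, which encodes TRAIL, at 0.0220 ± 0.00253 FPKM.

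Trp53 was the second of the 49 members at 44.0 and 43.2 FPKM (mm9 chr11:69393861-69405375). Mdm2, the ubiquitin ligase that degrades p53 and is itself a p53 target, was at 19.6 and 19.1 FPKM. Mdm4, which blocks p53 as a partner of MDM2, was at 10.6 and 9.84 FPKM. Trp53 exceeded Mdm2 by 1.13 ± 0.0065 and Mdm2 exceeded Mdm4 by 0.86 ± 0.04 on the log2(FPKM + 1) scale. Of 16 known p53 targets outside the set, 15 were detected, with a median of 10.5 FPKM over the list. Ccng1 was highest at 52.6 ± 2.56, Ei24 followed at 36.5 ± 0.0580 and Perp at 33.3 ± 0.613 FPKM. The lowest was Gdf15, a stress cytokine, at 0.312 ± 0.0696 FPKM, the member not detected, and Eda2r was next at 1.10 and 1.24 FPKM. Most of these genes have other regulators too, and their levels do not measure p53 activity.

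**Figure D4:**
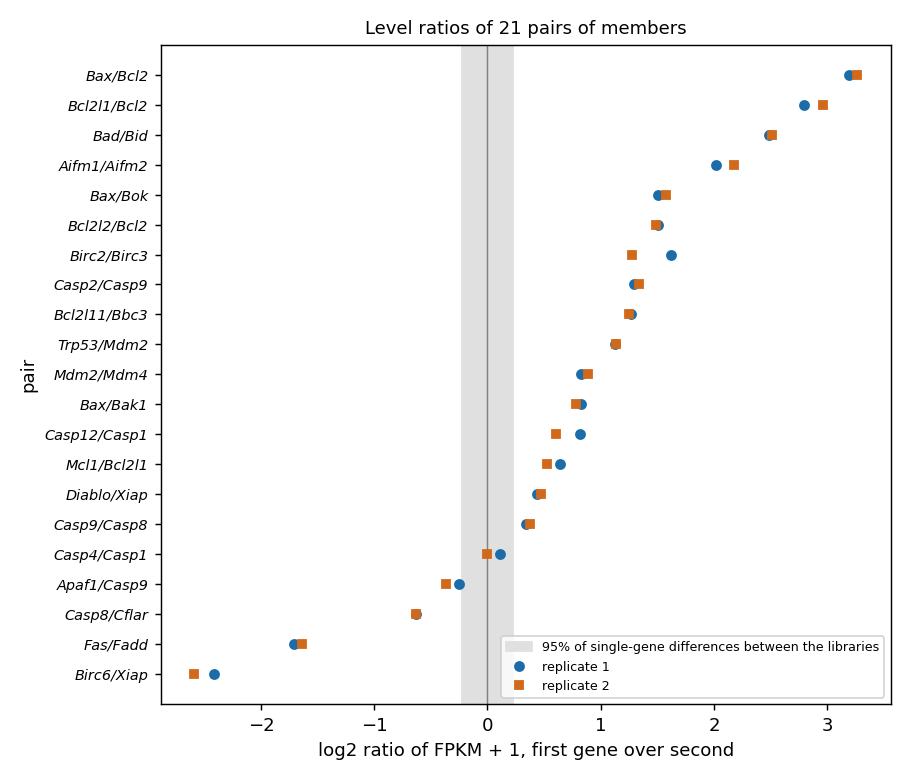
Log2 ratio of FPKM + 1 (horizontal axis) for 21 pairs of members, first gene over second, in replicate 1 (circles) and replicate 2 (squares); the grey band is ± 0.22, which holds 95% of single-gene differences between the libraries. In 20 pairs both points lie outside the band on the same side, and in 1, Casp4 over Casp1, they lie inside it.

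In 20 of the 21 pairs the ratio was beyond 0.22 in both libraries with the same sign. That limit describes how far a single gene differed between the libraries, not how far different genes differ from each other. The pairs were chosen with earlier results of these data known, and the share among other gene pairs was not tested. The count therefore shows only that these ratios exceeded most single-gene differences between the libraries. Of 34 neighbouring pairs among the 35 detected members, ranked by mean, 13 overlapped. Overlap means that the lower value of the upper gene did not exceed the higher value of the next gene, whichever library each came from. Some of these pairs kept their order within both libraries, such as Xiap above Casp6 and Mdm4 above Bik. The order changed between the libraries for Bcl2l1 and Diablo, for Bak1 against Xiap and Casp6, and for Bmf against Mdm4 and Bik. It also changed for Aifm2 against Bcl2l11 and Birc2, and for Birc6 against Bcl2, Bbc3 and Bid. The genes of each of these pairs cannot be ranked.

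The libraries differed little in these genes. Among those averaging at least 1 FPKM, 0 of 36 members differed 2-fold or more, beside 0.111% of 11757 protein-coding symbols, which is 13 genes. The median size of the log2(FPKM + 1) difference was 0.05 for the members and 0.06 for all such symbols. Of the 36 members, 26 were higher in replicate 1, 72.2%, beside 69.3% of all such symbols, whose median difference was -0.04 (replicate 2 minus replicate 1). With replicate 2 rescaled by 1.03 to remove this shift, 17 of 36 members were higher in replicate 1, 47.2%, beside 50.1%. Beyond 0.22 lay 2 of the 36 members, 5.56%, near the 5.0% that the limit leaves by construction: Birc6 differed by -0.25 and Birc3 by 0.22.

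Birc6 also has the longest transcript of the members with an annotated one, 15768 bases in the GENCODE M21 set. Protein-coding genes with a longest transcript of 8000 bases or more had a median difference of -0.12 (690 genes), those of 4000 to under 8000 bases -0.05 (3924 genes) and those under 1000 bases -0.02 (517 genes). Long transcripts were thus lower in replicate 2 on the whole, with Birc6 beyond the median of its length class. The 8 members of 4000 to under 8000 bases had a median of -0.07. Within that class Apaf1 differed by -0.15 and Bmf by 0.19, and the part of transcript length in these differences was not tested.

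**Figure D5:**
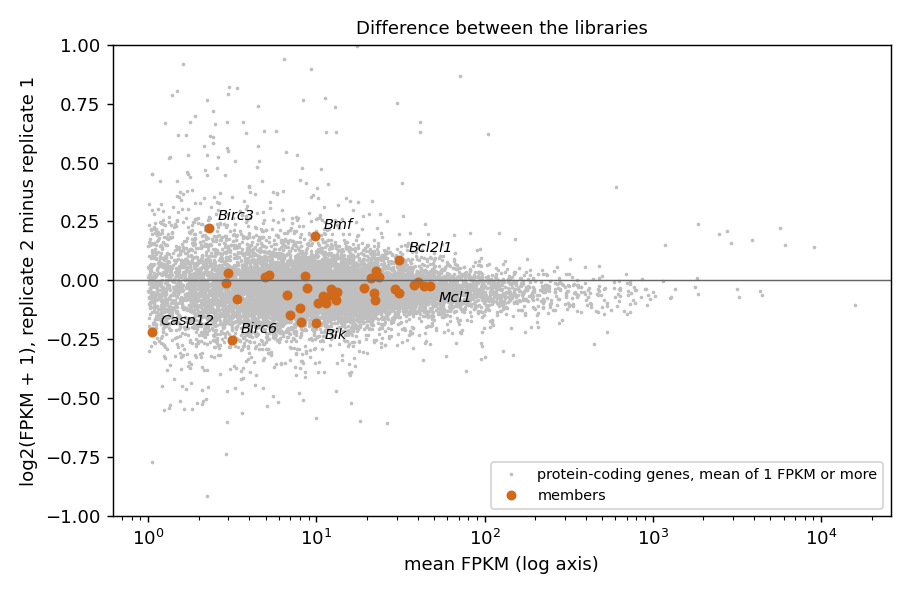
Difference in log2(FPKM + 1), replicate 2 minus replicate 1, against mean FPKM (log axis) for protein-coding genes averaging at least 1 FPKM (grey) and the 36 members among them (orange). The members lie between -0.25 for Birc6 and 0.22 for Birc3, and 13 other genes lie beyond the axis limits of -1 and 1.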

How the data were processed

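RNA sequencing of total RNA from 2 heart libraries was used (Trizol extraction and an Illumina TruSeq RNA kit, per the labels' protocols). The authors deposited 1 FPKM value per gene and library. The submitters' processing notes name GSNAP, Cufflinks, Cuffnorm, mm9 and hg19, with no roles. The annotation, the strand setting and the rule for reads with several matches are not stated there. Gene coordinates are the files' own, on mm9: chromosome 1 reaches 197054592, beyond 195323493 in the GRCm38 annotation.

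From these values, rows of a symbol were summed over protein-coding rows, which gave 22240 symbols, and means, SDs, and log2 values after a pseudocount of 1 FPKM were computed, which understates ratios of low genes. No p was given, since with 1 group of 2 libraries an exact two-sided sign-flip test cannot go below 0.5. Pidd1, Gsdme and Adgre1 were found by gene ID under older symbols. The members, role lists, 7 pathway lists, marker lists and 24 pairs were chosen with earlier results of these data known. Values of 2 members, the 3 pairs with them and the sum of their role are not reported here; both members are in the counts over all 49. All members could be named, and of other lists the highest 3, the lowest 2 and those listed at 0. Genes beyond that rule (Il18, Dffb, Gm10053, Gm10108, Gm20521, Gm45808, Mthfs, Ggnbp1, B3gnt4, H2afy2, Gpr137 and Irf3) were chosen after the values were seen.

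Shared stretches (98% identity over 75 bases or more) were sought with BLAST 2.17.0 in GENCODE M21 transcripts, which matched 47 members. Steps were tested on simulated data. Alternatives were another pseudocount, detection limit, filter, fold and scaling, each library alone, and the highest row in place of the sum. Python 3.11.15, NumPy 2.4.6, pandas 2.3.3 and Matplotlib 3.10.9 were used. Depth is unknown, so counting error has no interval.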

Additional observations from a re-analysis of the deposited data

How the results depend on the processing

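No paired analysis was possible because the libraries form 1 group. The count of detected members (35) was 36 in either library alone, 38 with a limit of 0.5 FPKM and 29 with one of 5 FPKM. The 0 members with a 2-fold difference stayed 0 under all 6 alternatives tried for that count, 1.5-fold and no filter among them. The alternative with no filter kept the pseudocount of 1 FPKM. Members under 1 FPKM in both libraries could therefore not reach 2-fold, and for them the count shows nothing. Bcl2l14, for example, was at 0.0302 FPKM in replicate 1 and 0.0756 FPKM in replicate 2. The median member level, 3.18 as log2(FPKM + 1), moved to 3.03 with a pseudocount of 0.1 FPKM and to 3.60 over members averaging at least 1 FPKM. Rescaling replicate 2 moved the summed FPKM beyond its SD for the prosurvival (94.6), effector (76.7), BH3-only (56.8), initiator (39.6) and death receptor (17.4) genes. The log2 ratio of Casp4 to Casp1, 0.06, turned to -0.0014 without replicate 1 and was 0.11 without replicate 2. All other pair ratios kept their sign and their side of the limit under the 5 alternatives tried for them. Depth limits members under 1 FPKM, where a level of 0 does not show absence.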

Other observations

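Genes downstream of the caspases and of cell clearance were read from lists of the pathway. All 8 genes of caspase substrates and DNA fragmentation were detected, with a median of 9.61 FPKM. Acin1, a chromatin protein cleaved in apoptosis, was highest at 56.7 ± 1.03 FPKM, Parp1, a DNA repair enzyme cut by executioner caspases, was at 38.5 ± 2.15 and Dffa, the inhibitor of the caspase-activated nuclease, at 14.1 ± 0.488 FPKM. Dffa exceeded Dffb, which encodes that nuclease, at 2.57 ± 0.0605 FPKM, in both libraries. The pyroptosis-linked Gsdme was lowest at 2.14 ± 0.151 FPKM and the scramblase gene Xkr8 next at 2.48 ± 0.0844 FPKM.

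Of 12 genes of the engulfment of dying cells, 9 were detected. The bridging protein gene Mfge8 was at 62.5 ± 2.62 FPKM, the receptor gene Axl at 24.8 ± 0.282 and its ligand gene Gas6 at 20.2 ± 1.05 FPKM. The phagocyte receptor genes Timd4, at 0.0926 ± 0.0246, and Stab2, at 0.157 ± 0.0474 FPKM, were not detected. Among 11 other mitochondrial regulators 10 were detected, with the channel genes Vdac1 at 280 ± 0.772 and Vdac2, which binds BAK, at 193 ± 7.13 FPKM, and the BH3-like mitophagy gene Bnip3 at 73.5 ± 7.65 FPKM. Aifm3 was lowest at 0.327 ± 0.0269 FPKM, and the nuclease gene Endog next at 6.63 ± 0.966 FPKM.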
